A study of Homo sapiens with 6 samples.

Results

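Canonical Polycomb repressive complex 1 (PRC1) is described here by 9 genes of its chromobox (CBX), Polyhomeotic (PHC) and RING families, measured in Jurkat cells. The members were listed by name: CBX2, CBX6, CBX7, CBX8, PHC1, PHC2, PHC3, RING1 and RNF2. They are 9 of the 39012 rows of the deposited expression table, and all 9 passed the filter on low values, set at 10 reads on average per library. RNA-seq libraries were made from Jurkat cells stably overexpressing SCML4 (SCML4, n = 3) and from Jurkat cells carrying the empty vector (EV, n = 3). Jurkat is an established human T cell leukemia line. Both groups were stimulated for 6 h with the phorbol ester PMA at 100 ng/ml and the calcium ionophore ionomycin at 1 µM, so unstimulated cells are not part of any comparison. Neither the vector promoter nor whether each group is 1 transduced pool, 1 clone or several cultures is stated in the sources used here. The p-values therefore reflect the spread among these 6 libraries alone, and that spread may be technical. Fewer cells of a kind and less RNA per cell cannot be told apart in such bulk samples.

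PRC1 silences genes by modifying and compacting chromatin. Its catalytic core pairs RING1 or RNF2, alternative E3 ligases that place ubiquitin on histone H2A, with a PCGF protein. In the canonical form a CBX protein binds trimethylated lysine on histone H3 through its chromodomain, and a PHC protein polymerises through its SAM domain. SCML4, the overexpressed gene, belongs to the Scm-like Polycomb group proteins, whose family is related to the fly protein Scm, a partner of Polyhomeotic. The comparison asks whether transcripts of the canonical subunits differed between cells that overexpressed it and cells that did not.

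Promoters were available for 7 of the 9 members, 9 entries in all, each covering 250 bases before to 50 bases after an annotated gene start (RefSeq, GRCh38.p14). Capitals mark CACGTG, the E-box that MAX-type factors bind, including MGA with MAX in one variant PRC1. The motif is its own reverse complement, so both strands are covered. It was found in 3 of the 9 member promoters, those of CBX6, PHC3 and the first of the PHC2 entries, against 7.26% of all 35116 promoters in the same table. Those 3 are shown because they hold the motif, and CBX7 is shown because it was the sole member whose groups did not overlap. The windows lie at chr22:39152631-39152930 for CBX7, chr3:170181684-170181983 for PHC3, chr22:38872167-38872466 for CBX6 and chr1:33431046-33431345 for PHC2. All are on the minus strand and are printed 5′ to 3′ in the direction of transcription.
CBX7: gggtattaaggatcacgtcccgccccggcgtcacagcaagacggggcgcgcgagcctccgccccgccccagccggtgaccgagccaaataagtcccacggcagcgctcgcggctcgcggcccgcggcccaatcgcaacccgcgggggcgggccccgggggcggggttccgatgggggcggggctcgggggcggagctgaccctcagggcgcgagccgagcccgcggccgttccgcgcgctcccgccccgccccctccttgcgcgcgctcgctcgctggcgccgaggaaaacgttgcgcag
PHC3: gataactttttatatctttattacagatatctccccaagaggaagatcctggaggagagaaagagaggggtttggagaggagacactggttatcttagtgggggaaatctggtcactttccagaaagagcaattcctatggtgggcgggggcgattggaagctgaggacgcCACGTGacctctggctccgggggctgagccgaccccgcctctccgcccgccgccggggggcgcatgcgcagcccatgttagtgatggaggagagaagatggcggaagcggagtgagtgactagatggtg
CBX6: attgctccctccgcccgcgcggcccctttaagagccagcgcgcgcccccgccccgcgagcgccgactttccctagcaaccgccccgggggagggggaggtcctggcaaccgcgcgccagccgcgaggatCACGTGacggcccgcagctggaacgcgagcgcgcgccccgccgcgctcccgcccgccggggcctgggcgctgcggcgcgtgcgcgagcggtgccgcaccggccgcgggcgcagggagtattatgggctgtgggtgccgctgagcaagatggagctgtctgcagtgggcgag
PHC2: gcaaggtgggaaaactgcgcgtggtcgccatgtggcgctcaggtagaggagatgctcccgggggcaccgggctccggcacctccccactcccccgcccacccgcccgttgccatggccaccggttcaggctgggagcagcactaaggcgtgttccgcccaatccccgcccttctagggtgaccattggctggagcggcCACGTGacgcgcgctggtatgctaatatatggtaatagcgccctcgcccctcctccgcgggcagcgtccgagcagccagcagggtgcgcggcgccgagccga
The motif began 79 bases before the start of PHC3, 121 before that of CBX6 and 52 before that of PHC2. The CBX7 and CBX6 windows hold 50 and 47 CpG dinucleotides, PHC2 holds 30 and PHC3 holds 15, against a median of 14 over all promoters. A match describes these letters and does not show that a factor bound there. The share over all promoters was not matched for CpG content, and the motif itself holds a CpG. PHC1 and PHC2 each entered with 2 windows, and enrichment of the motif was not tested.

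Library totals were 8953671 to 10336597 reads in SCML4 libraries and 8968067 to 9680394 reads in EV libraries. Reads behind each value were recovered from the steps of the deposited FPKM, and a level in CPM is the number of a gene's reads among 1000000 reads of its library. SCML4 itself had 570, 657 and 506 reads in the SCML4 libraries, against 7, 2 and 1 reads in the EV libraries, as the labels say. All 12 markers of T cells and of the Jurkat line found in the table, among them CD3E, LCK and TAL1, had reads in every library. They summed to 3795 to 3949 CPM in SCML4 and 3466 to 3787 CPM in EV, without overlap, and their part in the results was not tested. Of 14 markers of other cell types, 5 were at 0 in every library (LYZ, HBB, EPCAM, KRT18 and COL1A2). All 14 summed to 33.9 to 37.1 CPM in SCML4 and 25.6 to 36.4 CPM in EV, mostly from CD79A, and the groups overlapped. EV library 1 was unlike the rest: along the leading principal component (34.7% of the variance) it scored -32.9, while every other library scored between 2.36 and 8.49. In that library a gene's log2 deviation from the other libraries went with the GC content of its transcript (Spearman's rho -0.498 over 14111 genes, a description across genes). Each member is therefore also given without that library.

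None of the 9 canonical subunits passed the test for a difference in transcript level between SCML4 and EV cells. With limma-trend on log2(CPM + 0.5) and Benjamini-Hochberg adjustment over 14160 genes, 0 of 9 members were called at an adjusted p under 0.05. Over all genes, 1 gene was called, SCML4 itself, a share of 0.00706%. At an unadjusted p under 0.05 the count was also 0 of 9 members, against 5.20% of all genes. Adjusted p-values of the members ran from 0.867 to 0.995. The fitted differences, SCML4 minus EV, were positive for 5 members and negative for 4, with a median of 0.11 on the log2 scale, against 0.01 over all genes tested. All 9 of the 95% confidence intervals included 0. Taken over the members, the intervals reached from a fold of 0.709, the lower bound for PHC1, to 1.43, the upper bound for CBX8. Those are outer bounds, and each member has its own interval, for CBX2 a fold of 0.867 to 1.15. Differences inside a member's own interval remain possible. An interval is not a detection limit for a call adjusted over 14160 genes. The groups did not overlap for 1 of 9 members, CBX7, against 11.6% of all genes. For 6.29% of all genes the SCML4 libraries were all higher, as for CBX7, and for 5.36% they were all lower, as for 0 members. Each share of members is read against those shares, and with 9 members a count of 1 is near the background.

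**Figure D1:**
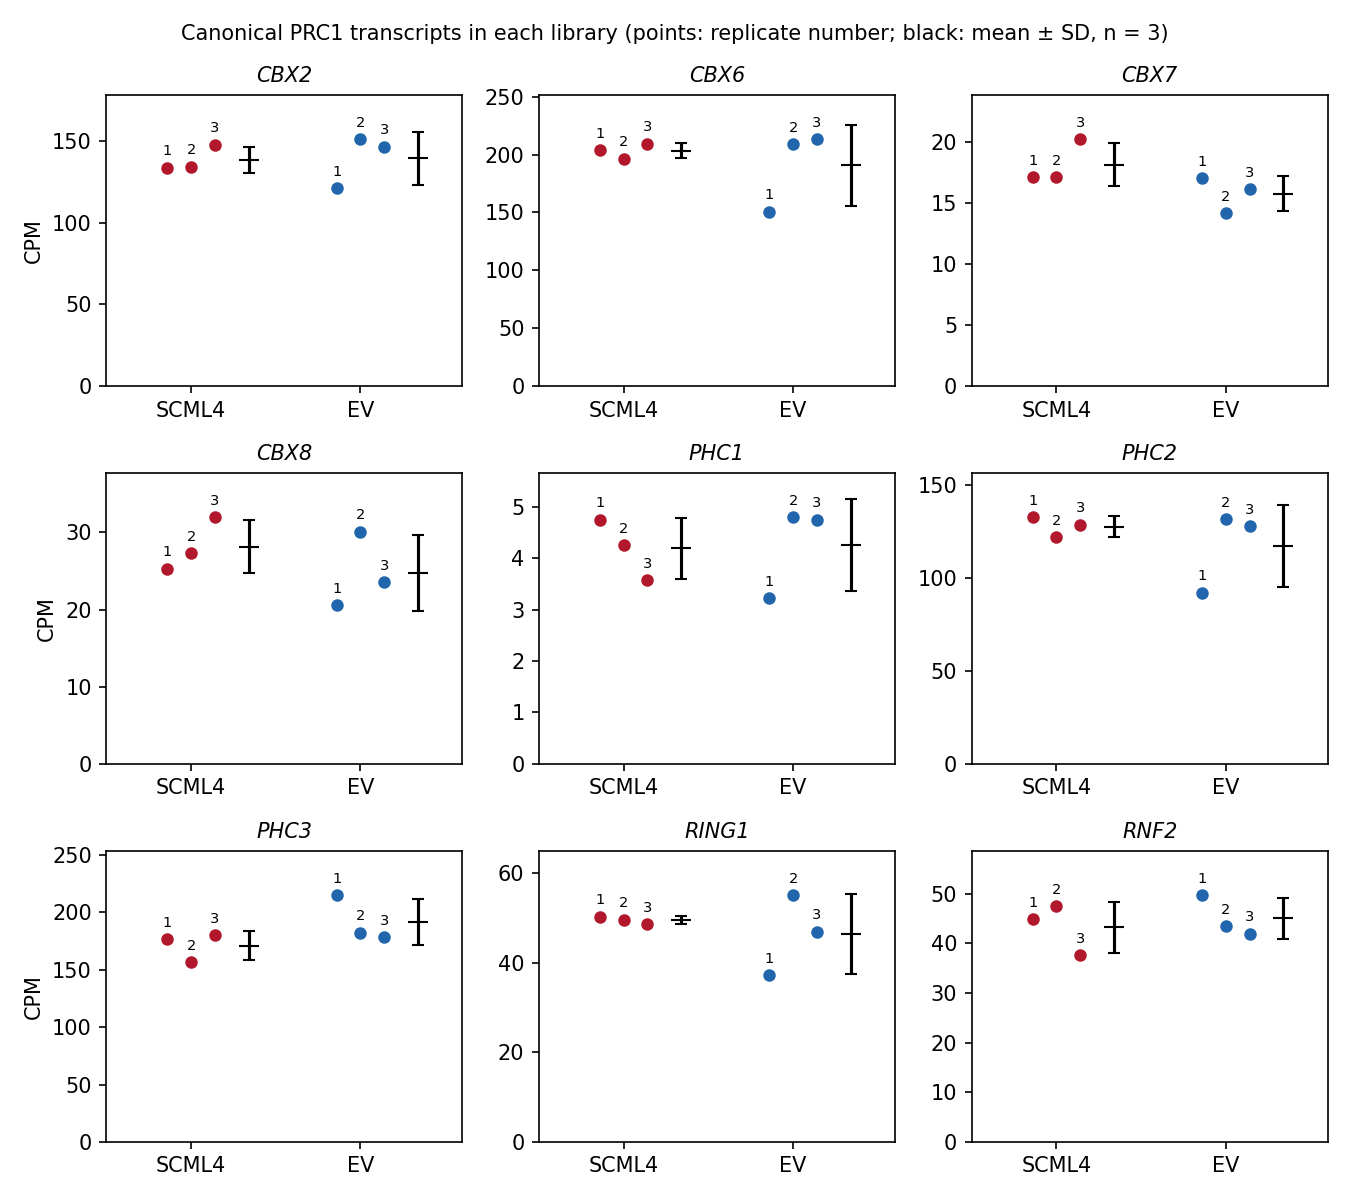
Level of each of the 9 members in every library, in CPM on a separate linear axis for each gene, with SCML4 libraries left of EV libraries; points are libraries, bars are the group means and error bars the SD (n = 3 each). CBX7 is the member whose SCML4 values, 17.1 to 20.2 CPM, all lie above its EV values, 14.2 to 17.0 CPM, and in 6 members the lowest value is that of EV library 1.

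The CBX subunits are the chromatin readers of the complex. CBX7, which can also bind RNA, had 17.1, 17.1 and 20.2 CPM in the SCML4 libraries, against 17.0, 14.2 and 16.1 CPM in the EV libraries. All 3 SCML4 values were above all 3 EV values, with SCML4 libraries 1 and 2 nearly equal to EV library 1. In reads these were 155, 177 and 181 for SCML4, against 164, 127 and 156 for EV. The difference was 0.20 (SE 0.14) on the log2 scale, with an unadjusted p of 0.177 and an adjusted p of 0.875. Without EV library 1 it was 0.25, and with GC content and length corrected in each library it was 0.13. Its annotated exons share 1338 of 7461 bases with an antisense gene. Whether the counting used strand is not stated, so reads of the pair may not be told apart.

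CBX8, which is also named HPC3, had 25.3, 27.3 and 31.9 CPM in the SCML4 libraries, against 20.6, 30.1 and 23.6 CPM in the EV libraries. EV library 2 was above SCML4 libraries 1 and 2, so the groups overlapped. The difference was 0.19 (SE 0.15) on the log2 scale, with an adjusted p of 0.875, and without EV library 1 it was 0.072. CBX6, one of the less studied chromobox subunits, had 204, 196 and 209 CPM in the SCML4 libraries. In the EV libraries CBX6 had 151, 209 and 213 CPM. The SCML4 libraries were close to each other, and only EV library 1 was low. The coefficient of variation was 3.19% in SCML4 and 18.3% in EV. The log2 difference of 0.11 (SE 0.11, adjusted p = 0.916) was -0.055 without that library. CBX2, whose loss is known to affect sex development in mouse and human, had 134, 134 and 148 CPM in the SCML4 libraries, against 121, 151 and 147 CPM in the EV libraries. The SCML4 values lay inside the range of the EV values. Its means were 139 ± 7.96 CPM in SCML4 and 139.65 ± 16.2 CPM in EV (SD, n = 3 each), and its log2 difference of -0.0036 had a 95% interval from -0.21 to 0.20 and was -0.10 without EV library 1.

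The PHC subunits link PRC1 particles to one another. PHC3 had 177, 156 and 179.9 CPM in the SCML4 libraries, against 215, 182 and 179 CPM in the EV libraries. The groups overlapped only between the highest SCML4 value and the lowest EV value. In reads these were 1600, 1617 and 1611 for SCML4, against 2069, 1635 and 1728 for EV. The log2 difference of -0.16 (SE 0.090) had the smallest unadjusted p of the members, 0.0924, and an adjusted p of 0.867. It was -0.080 without EV library 1, where PHC3 was highest, and -0.072 after the GC and length correction.

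PHC2 went the other way in the same library. It had 132, 122 and 128 CPM in the SCML4 libraries, against 92.0, 131 and 128 CPM in the EV libraries. EV libraries 2 and 3 lay within the SCML4 range and EV library 1 was far below it. The log2 difference of 0.14 (SE 0.12, adjusted p = 0.90) was -0.024 without EV library 1. PHC1, known for its expression in pluripotent cells, was the least abundant member by its own row. It had 43, 44 and 32 reads in the SCML4 libraries, against 31, 43 and 46 reads in the EV libraries, and the groups overlapped. Its log2 difference of -0.0084 had the widest interval of the members, from -0.50 to 0.48, so changes within that range remain possible. Without EV library 1 the difference was -0.18. Reads of PHC1 may be shared with its processed pseudogene PHC1P1, a near-identical copy elsewhere in the genome. PHC1P1 was listed with 470, 518 and 509 reads in the SCML4 libraries, against 450, 431 and 513 reads in the EV libraries, 12.1 times the reads of PHC1 over all libraries. With both rows summed the log2 difference was 0.095 (SE 0.095, adjusted p = 0.912), a sign opposite to that of PHC1 alone. PHC1 also shares 1105 of its 6090 exonic bases with M6PR on the opposite strand.

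The RING subunits are the E3 ligases, and 1 of them is present in each PRC1 particle of either form. RING1 had 50.3, 49.6 and 48.6 CPM in the SCML4 libraries, against 37.3, 55.1 and 47.0 CPM in the EV libraries. The SCML4 values were the tightest of any member, with a coefficient of variation of 1.75%, and lay inside the EV range, whose coefficient was 19.2%. The log2 difference was 0.11 (SE 0.13, adjusted p = 0.923), and -0.039 without EV library 1. RNF2, also known as RING1B and the more active ligase in mouse embryonic stem cells, had 44.8, 47.4 and 37.5 CPM in the SCML4 libraries, against 49.6, 43.4 and 41.9 CPM in the EV libraries. The groups overlapped, with SCML4 library 3 lowest and EV library 1 highest. Its log2 difference was -0.059 (SE 0.11, adjusted p = 0.952), and 0.013 without EV library 1. A processed pseudogene, RNF2P1, held 0.216 times the reads of RNF2, and with both rows summed the log2 difference was -0.040.

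**Figure D2:**
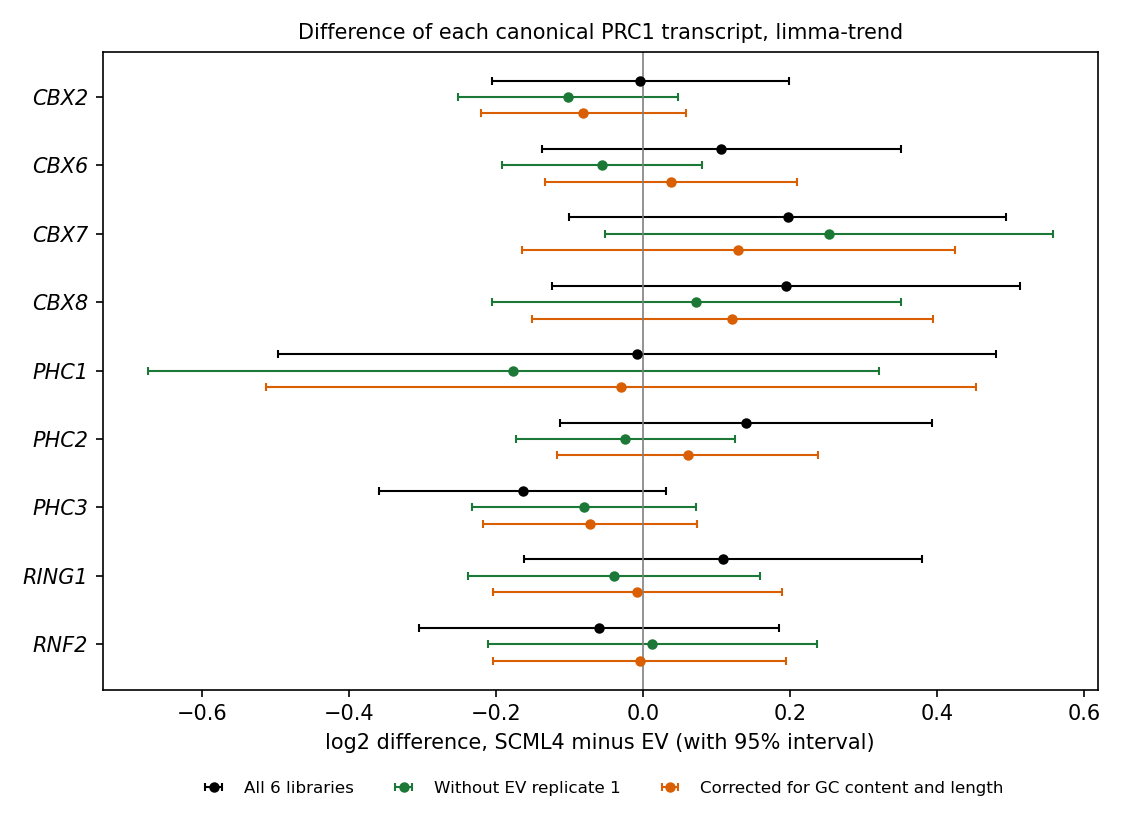
Difference of each member on the log2 scale, SCML4 minus EV, from all 6 libraries, without EV library 1, and with GC content and length corrected; bars are 95% confidence intervals. All 9 intervals from the 6 libraries include 0, and the points of CBX6, PHC2 and RING1 lie at 0.11, 0.14 and 0.11 with all libraries and at -0.055, -0.024 and -0.039 without EV library 1.

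Ratios within a library compare alternative subunits without using the library total. RING1 to RNF2 was 1.12, 1.05 and 1.29 in reads in the SCML4 libraries, against 0.751, 1.27 and 1.12 in the EV libraries. By these rows only EV library 1 had more reads on RNF2 than on RING1. The log2 difference of the ratio was 0.17, with a two-sided exact permutation p of 0.6 over libraries. CBX7 to CBX8 was 0.677, 0.628 and 0.633 in the SCML4 libraries, against 0.828, 0.470 and 0.684 in the EV libraries. Here the SCML4 ratios were close together and the EV ratios lay on both sides of them (exact permutation p = 1). PHC1 to PHC2 was 0.036, 0.035 and 0.028 in the SCML4 libraries, against 0.035, 0.036 and 0.037 in the EV libraries, with overlapping groups. Its log2 difference was -0.15, or -0.032 without SCML4 library 3, and its exact permutation p over all 6 libraries was 0.3. Adjusted over these 3 ratios, the p-values were 0.9, 1 and 0.9 in the order given. The smallest p that 3 libraries against 3 allow is 0.1. PHC1 entered its ratio without the reads of PHC1P1, and RNF2 without those of RNF2P1. With the reads of RNF2P1, RNF2 would exceed RING1 in SCML4 library 1 (RING1 456, RNF2 406 and RNF2P1 96 reads). It would not do so in EV library 2 (494, 389 and 91 reads).

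Levels between genes were compared as CPM per kilobase of annotated exon (GENCODE 29 lengths), because the gene lengths inside the deposited FPKM were not those of the named genes. RING1 was at 27.2 ± 0.478 CPM per kilobase in SCML4 and 25.6 ± 4.91 in EV (SD, n = 3 each). PHC2 followed at 25.6 ± 1.10 CPM per kilobase in SCML4 and 23.5 ± 4.38 in EV. CBX6 and CBX2 were close behind, at 25.3 and 24.4 CPM per kilobase in SCML4 and at 23.8 and 24.6 in EV. Neighbours among these 4 genes overlapped over the libraries, and CBX2, the lowest of them, lay above RNF2 in every library. RNF2 and PHC3 formed a middle pair whose levels overlapped, RNF2 at 10.6 CPM per kilobase in SCML4 and 11.0 in EV, PHC3 at 10.1 in SCML4 and 11.3 in EV. Below them CBX8 was at 6.76 CPM per kilobase in SCML4 and 5.94 in EV. CBX7 was at 2.43 CPM per kilobase in SCML4 and 2.11 in EV, and PHC1 at 0.688 in SCML4 and 0.699 in EV. From PHC3 down, each gene lay above the next in every library. The order of the upper genes depends on the length used. PHC3 has 16919 bases of annotated exon, and with the mean length of coding transcripts in its place it became the highest member, at 67.1 CPM per kilobase over all libraries. CBX8, CBX7 and PHC1 were the lowest members under each of 3 length definitions. PHC1 was placed by its own row alone. Its pseudogene PHC1P1, with which it may share reads, held 12.1 times as many, so the place of PHC1 is uncertain.

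**Figure D3:**
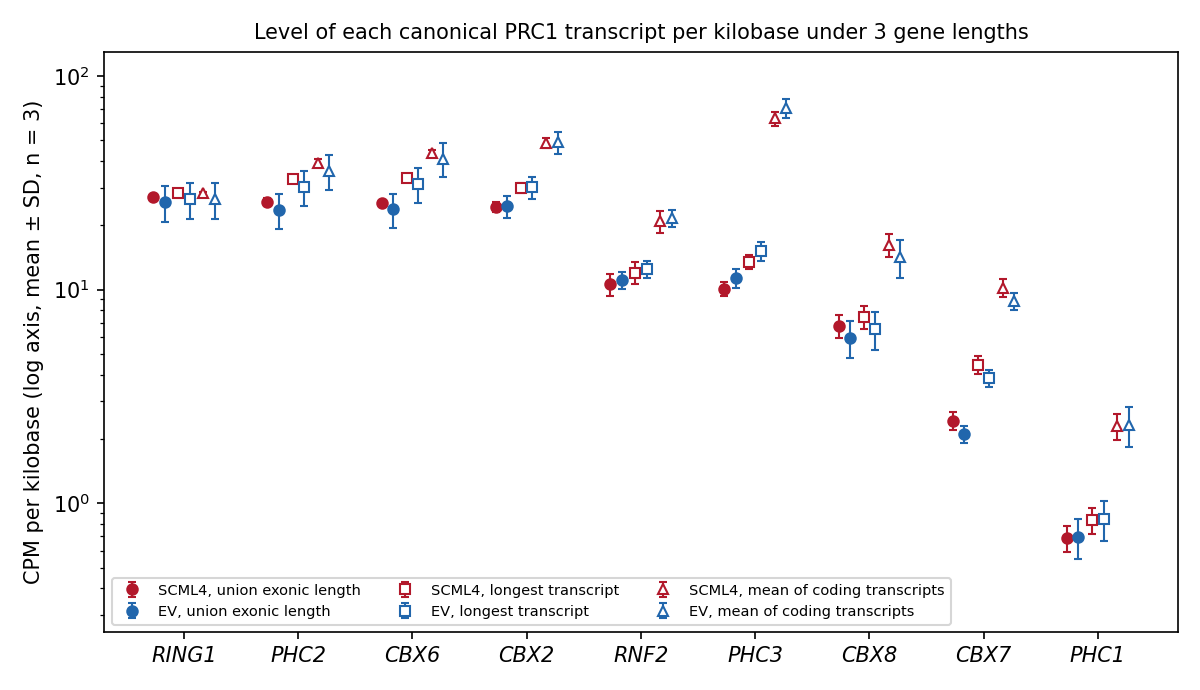
Level of each member in CPM per kilobase on a logarithmic axis, with SCML4 left of EV; points are means and bars SD (n = 3 each), and the symbols mark 3 gene lengths (all annotated exons, the longest transcript and the mean of coding transcripts). By annotated exons, which set the order of the genes, RING1, PHC2, CBX6 and CBX2 lie together near 25 and RNF2 and PHC3 near 11. PHC1, without the reads of its pseudogene PHC1P1, is lowest at 0.688 in SCML4 and 0.699 in EV.

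Within each family the share of transcripts per kilobase of all annotated exons was also compared. The shares depend on that length. By the mean length of coding transcripts PHC3 was at 67.1 CPM per kilobase over all libraries and PHC2 at 37.6, so PHC3 would take the largest PHC share. By the longest transcript PHC2 stayed above PHC3, at 31.6 against 14.3. RING1 and RNF2 were nearer each other by the mean of coding transcripts, at 27.4 and 21.3. CBX2 took 41.1% to 41.7% of the CBX total in SCML4 libraries and 42.9% to 45.1% in EV libraries, so the groups did not overlap. CBX6 took 43.0% in SCML4 and 42.0% in EV, CBX8 11.5% in SCML4 and 10.5% in EV, and CBX7 4.12% in SCML4 and 3.83% in EV. PHC2 took 69.7% to 71.1% of the PHC total in SCML4 libraries and 58.3% to 69.6% in EV libraries, again without overlap and with EV library 1 at the low end. PHC3 took 27.7% in SCML4 and 32.3% in EV, and PHC1 1.89% in SCML4 and 1.95% in EV. The PHC shares leave out the reads of PHC1P1, which may belong in part to PHC1. RING1 took 72.0% of the RING total in SCML4 and 69.4% in EV, without the reads of RNF2P1. The shares of a family sum to a whole and were not tested. How often such shares separate over other genes was not computed. In CPM 11.6% of all genes did not overlap, and CBX2 and PHC2 themselves overlapped. Summed over each family, levels were 388 ± 18.4 CPM in SCML4 and 371 ± 53.5 CPM in EV for the CBX genes. The PHC genes summed to 303 ± 17.6 CPM in SCML4 and 313 ± 4.70 CPM in EV, and the RING genes to 92.7 ± 5.83 CPM in SCML4 and 91.4 ± 6.17 CPM in EV (SD, n = 3 each).

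The members differed most in EV library 1, and in a pattern that went with base composition. PHC3 and RNF2, with transcript GC contents of 37.9% and 38.1%, were higher there than in the mean of the other 5 libraries, by 0.30 and 0.21 on the log2 scale. The others with a GC content of 57.5% to 61.6%, all in the low direction there, were CBX2 at -0.23, CBX8 at -0.41, RING1 at -0.42, CBX6 at -0.45 and PHC2 at -0.48. PHC1, with 50.9% GC, deviated by -0.40. CBX7 was an exception, with 59.2% GC and a deviation of 0.016. Across the 9 members Pearson's r was -0.805 and Spearman's rho -0.8, a description over genes that share the library and its depth. EV library 1 was the lowest of the 6 libraries for 6 members and the highest for 2, against 28.3% and 27.9% of all genes. The part of that library's base composition in the group differences was not tested beyond the values without the library and after correction.

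**Figure D4:**
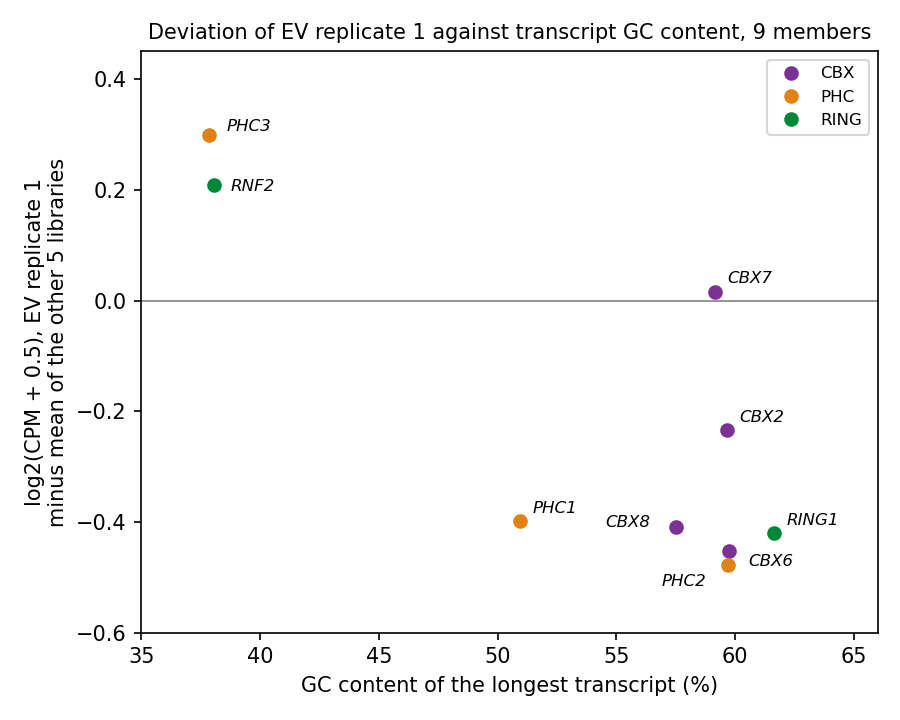
Deviation of EV library 1 from the mean of the other 5 libraries, on the log2 scale, against the transcript GC content in percent, for the 9 members, coloured by family. PHC3 and RNF2, near 38% GC, lie above 0 at 0.30 and 0.21, and PHC2, at 59.7% GC, lies lowest at -0.48.

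Genes related to canonical PRC1 were taken from 7 lists, of which 5 hold other Polycomb and H2A deubiquitination genes, 1 the HP1 proteins and 1 its cell cycle targets. Of 70 listed genes, 65 were tested and 0 were called in either direction, with 33 positive and 32 negative differences. In the 5 lists of Polycomb and deubiquitination genes, 1 of 59 tested genes had an unadjusted p under 0.05, against 5.20% of all genes. All 6 PCGF genes, which give each PRC1 form its identity, were tested, with 3 positive and 3 negative. BMI1, the PCGF subunit best known in canonical PRC1, was at 113 CPM in SCML4 and 122 CPM in EV. PCGF2 was at 3.77 CPM in SCML4 and 3.41 CPM in EV, and PCGF6, of a variant form, at 14.7 CPM in SCML4 and 14.1 CPM in EV. Of 22 genes of variant PRC1, 13 were positive and 9 negative, with a median log2 difference of 0.0083. MGA was at 169 CPM in SCML4 and 189 CPM in EV, and the histone demethylase KDM2B at 125 CPM in SCML4 and 139 CPM in EV. Of 9 tested genes of the Scm and MBT-repeat list, 3 were positive and 6 negative, with a median of -0.090. Its leading genes by p were MBTD1 at 99.1 CPM in SCML4 and 109 CPM in EV, L3MBTL1 at 11.3 CPM in SCML4 and 14.0 CPM in EV, and L3MBTL2 at 49.2 CPM in SCML4 and 53.4 CPM in EV. L3MBTL1 was highest in EV library 1, with 188 reads, and its log2 difference of -0.26 was 0.0021 without it.

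PRC2 places the methyl mark that CBX proteins read. Of its 13 tested genes, 7 were positive and 6 negative. Its catalytic subunit EZH2 was at 208 ± 8.60 CPM in SCML4 and 236 ± 29.8 CPM in EV, with a log2 difference of -0.17 that was -0.073 without EV library 1 (adjusted p = 0.867 with all libraries). EPOP, an accessory subunit, was at 69.2 ± 3.99 CPM in SCML4 and 56.5 ± 9.50 CPM in EV. Its log2 difference was 0.30, or 0.16 without EV library 1, with an unadjusted p of 0.0238 and an adjusted p of 0.867. LCOR, another gene of that list, was at 158 CPM in SCML4 and 173 CPM in EV. Of 9 tested genes around the removal of ubiquitin from H2A, 3 were positive and 6 negative. MYSM1, an H2A deubiquitinase, was at 145 CPM in SCML4 and 163 CPM in EV. FOXK2, a partner of the BAP1 deubiquitinase, was at 175 CPM in SCML4 and 158 CPM in EV, and USP22, of the SAGA complex, at 316 CPM in SCML4 and 304 CPM in EV. Of the 3 HP1 genes, whose chromodomains read a different histone methyl mark, 1 was positive and 2 negative. CBX3 was at 343 CPM in SCML4 and 377 CPM in EV, CBX5 at 1067 CPM in SCML4 and 1149 CPM in EV, and CBX1 at 175 CPM in SCML4 and 174 CPM in EV.

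The cyclin-dependent kinase inhibitors are classical targets of PRC1. CDKN2A and CDKN2B had 0 reads in all 6 libraries, which allows up to 0.29 to 0.335 CPM by library (3 reads, counting error only). Reads alone do not tell a silent gene from one missing from the genome of the line, and this was not tested. Of the 4 tested, 3 were positive, 1 was negative and 0 were called. CDKN1C had 34, 44 and 43 reads in the SCML4 libraries, against 25, 24 and 22 reads in the EV libraries. The log2 difference was 0.66 (SE 0.22), or 0.68 without EV library 1, with an unadjusted p of 0.0109. CDKN2C had a log2 difference of 0.25, or 0.13 without EV library 1, with an unadjusted p of 0.0253. CDKN1B had a log2 difference of 0.21, or 0.27 without EV library 1, with an unadjusted p of 0.0292. For these 3 genes the SCML4 libraries were all above the EV libraries, as for 6.29% of all genes, and the adjusted p of each was 0.867. The remaining tested inhibitor went the other way, with a log2 difference of -0.39. At an unadjusted p under 0.05 the count was 3 of the 4 tested inhibitors, against 5.20% of all genes. The list is short and was chosen with earlier results of these data known, so this count is a description only.

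For each member the gene most like it over the 6 libraries was looked up among the genes averaging at least 50 reads per library, as a description. RING1 was most like PTBP1 (Pearson's r 0.996 in log2(CPM + 0.5)), PHC2 most like RABL6 (0.998), CBX6 most like BDH2P1 (0.997), CBX8 most like ARHGAP35 (0.999) and CBX2 most like CMC1 (0.998). PHC3 was most like VLDLR (0.995), RNF2 most like NSMCE1 (0.991), PHC1 most like TMED2-DT (0.9897) and CBX7 most like PIK3CG (0.987). A highest r among so many genes over 6 libraries is large by selection. Among the members themselves, CBX6 and PHC2 were the most alike over the 6 libraries, with r 0.981, but r was 0.581 without EV library 1, where both were low. CBX2 and RNF2 were the least alike, with r -0.812, or -0.681 without that library.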

How the data were processed

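RNA-seq of 6 Jurkat libraries was analysed, 3 overexpressing SCML4 and 3 with an empty vector, grouped by sample title. Per the labels' protocols, RNA came from a TRIzol extraction and went into a SMARTer mRNA-seq library kit. FastQC, STAR, SAMtools and hg19 are named without versions, per the submitters' processing notes; the counter, its strand setting and the annotation were not given in the sources used here. Values in the deposited table are FPKM, reads per length and library total, per the file headers.

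Within a gene, FPKM moves in steps of 1 read, so reads, gene lengths and library totals were recovered from the steps; all 23897 genes above 0 came out whole within 0.002 reads. A divisor common to a gene's reads and length cannot be seen. The recovered lengths had Spearman correlations of -0.005 to 0.010 with GENCODE 29 gene lengths (GRCh38), so FPKM was not compared between genes. GENCODE was used for lengths, GC content and overlaps, with no coordinates printed from it.

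CPM used the recovered totals. Differences were tested with limma 3.58.1 (R 4.3.3), trend fit on log2(CPM + 0.5), over 14160 genes averaging 10 reads or more, with p adjusted by Benjamini-Hochberg and called under 0.05. Subunit ratios were tested by exact permutation (scipy 1.17.1). Steps were tested on simulated data. The fold change is on the log2(CPM + 0.5) scale, which understates changes of low genes. Named genes are the 9 members, SCML4, up to 3 genes of each partner list with the smallest p, and the gene most like each member. The members and lists were chosen with earlier results of these data known. No duplicates were found within a group, where the chi-square per gene between libraries was 2.60 to 11.1.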

Additional observations from a re-analysis of the deposited data

How the results depend on the processing

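Under 19 alternatives to the settings reported, and with GC and length correction without EV library 1, which was chosen after seeing the data, 0 members and 0 genes of the 7 related lists were called. PHC1 was not tested at a minimum mean of 50 reads. The sum of PHC1 or RNF2 with its pseudogene was also chosen after seeing the data and called neither. CBX7, CBX8 and PHC3 kept their direction in all 20, with log2 differences of 0.12 to 0.25, 0.05 to 0.34 and -0.21 to -0.072. Over all genes the count called was 1, against 2 with median ratio scaling, 0 with log2(FPKM + 1), 20 with library weights, 14 with voom and library weights, 3 with GC and length correction and 14 with that correction without EV library 1, and 1 to 14 on leaving out 1 library. Members whose groups did not overlap numbered 1, against 2 with median ratio scaling, 0 with quantile scaling, 0 with GC and length correction, and 1 to 3 on leaving out 1 library, against 11.6%, 11.7%, 11.6%, 11.5% and 19.6% to 22.8% of all genes in that order. The RING1 to RNF2 ratio (log2 difference 0.17) was -0.0028 with GC and length correction and -0.052 to 0.33 on leaving out 1 library, the negative value being without EV library 1. CBX7 to CBX8 (0.0041) ranged from -0.22, without EV library 2, to 0.19, and was -0.030 without SCML4 library 1. PHC1 to PHC2 (-0.15) was -0.090 with GC and length correction and ranged from -0.21 to -0.032, the value without SCML4 library 3, on leaving out 1 library. Signs of small differences turned as follows. With library weights CBX6 was -0.029, PHC2 -0.0052, RING1 -0.0053 and RNF2 0.049. With voom and weights CBX6 was -0.020, RING1 -0.0017 and RNF2 0.035. With GC and length correction RING1 was -0.0075. With that correction without EV library 1, CBX6 was -0.066, PHC2 -0.039, RING1 -0.058 and RNF2 0.0075. With quantile scaling CBX2 was 0.00051, and with its pseudogene PHC1 was 0.095. On leaving out 1 library, CBX2 ranged from -0.10 to 0.057, CBX6 from -0.055 to 0.19, PHC1 from -0.18 to 0.090, PHC2 from -0.024 to 0.23, RING1 from -0.039 to 0.24 and RNF2 from -0.13 to 0.038. For these changes the cause was not tested. With the replicate number as a block, 2 genes were called and 0 members, and the RING1 to RNF2 difference was again 0.17. Deviations of same-numbered libraries from their group means correlated with r of -0.053, -0.095 and -0.044. No same-numbered pair was the best match from both sides. Whether same-numbered libraries shared a preparation cannot be told from these values.

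PHC1, at 31 to 46 reads, had the least precise difference. Intervals cover the spread between 3 libraries a group, and floors cover counting error only.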
